A study of Homo sapiens with 48 samples.

Results

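The 5 genes described here belong to the plasminogen activation system: the proteases PLAU and PLAT, the receptor PLAUR, and the serpins SERPINB2 and SERPINE2. They were taken by name from 20007 protein-coding genes, by a rule that uses no measured value but was set with earlier results of these data known. Every peak that overlapped the gene body of a member, as annotated by GENCODE on hg38, or the 50 kb on either side of it was assigned to that member. The data were ChIP-seq peak lists from L3.6pl, an established human pancreatic ductal adenocarcinoma (PDAC) cell line, and the labels name no genetic modification of it. RELA, RELB and H3K27ac were each profiled in cells given PBS as vehicle and in cells given TNFα or TWEAK at 10 ng/ml for 30 min or 6 h, while FOSL1 was profiled in vehicle cells alone. These 48 samples formed 16 conditions of 3 replicates, and the authors deposited 1 merged peak list per condition. There is therefore no replicate error behind any value below, and no comparison was tested. For RELA at 30 min of TNFα, the peak names carry both "merged" and "Rep1", and whether that list pools 3 replicates could not be settled. How long the vehicle was applied is not given in the sources used here.

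PLAU encodes urokinase-type plasminogen activator (uPA), which cleaves plasminogen to plasmin at the cell surface. PLAUR encodes uPAR, the membrane-anchored receptor that concentrates uPA there. PLAT encodes tissue-type plasminogen activator (tPA), which also cleaves plasminogen, mainly where it is bound to fibrin. SERPINB2 (plasminogen activator inhibitor type 2) and SERPINE2 (protease nexin-1) block these proteases, and the system as a whole is known for its part in matrix degradation, invasion and wound repair in carcinomas. RELA is the main transactivating subunit of canonical NF-κB, RELB belongs to the noncanonical pathway that TWEAK engages, FOSL1 is an AP-1 subunit, and H3K27ac marks active promoters and enhancers.

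In the member windows, RELA and RELB regions that overlapped between lists were merged, which gave 15 sites. Their positions are given as the distance of the strongest summit from the canonical start site of the member, upstream or downstream in the direction of transcription. The sequences below are from the plus strand of hg38 and are shown because they carry the strongest RELA site of PLAU, PLAUR, SERPINB2 and SERPINE2, the PLAU site shared with RELB, and the SERPINB2 site that coincided with FOSL1. Capitals mark matches to the κB consensus (searched as a degenerate palindrome of 10 bases) and to the AP-1 consensus TGANTCA, on either strand. The PLAU stretch 1.88 kb upstream is chr10:73909242-73909269, a short stretch of 28 bases that holds both matches. The other windows span the summit and 50 bases on either side of it and are chr10:73889111-73889211 (PLAU, 22 kb upstream), chr19:43675620-43675720 (PLAUR, 5.5 kb upstream), chr18:63882713-63882813 (SERPINB2, 4.94 kb upstream), chr18:63910007-63910107 (SERPINB2, 22.4 kb downstream) and chr2:224086595-224086695 (SERPINE2, 47.4 kb upstream).
PLAU, 1.88 kb upstream: TGAATCAtgacggtccctGGGAATTTCC
PLAU, 22 kb upstream: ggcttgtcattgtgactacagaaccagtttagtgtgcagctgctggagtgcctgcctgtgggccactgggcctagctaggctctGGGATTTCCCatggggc
PLAUR, 5.5 kb upstream: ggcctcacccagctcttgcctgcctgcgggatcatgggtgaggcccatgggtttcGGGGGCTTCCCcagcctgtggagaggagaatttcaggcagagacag
SERPINB2, 4.94 kb upstream: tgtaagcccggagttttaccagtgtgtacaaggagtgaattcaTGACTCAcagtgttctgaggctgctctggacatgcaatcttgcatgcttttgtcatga
SERPINB2, 22.4 kb downstream: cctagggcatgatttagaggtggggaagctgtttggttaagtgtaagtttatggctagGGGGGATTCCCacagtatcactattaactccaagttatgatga
SERPINE2, 47.4 kb upstream: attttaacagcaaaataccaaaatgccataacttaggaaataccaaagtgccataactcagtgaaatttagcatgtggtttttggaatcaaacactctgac

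None of the 5 members had a RELA region in the vehicle list, and all 5 had at least 1 after 30 min and after 6 h of TNFα. In the 5 windows together RELA had 0 regions with vehicle. TNFα gave 14 RELA regions at 30 min and 8 at 6 h, and TWEAK gave 1 at 30 min and 0 at 6 h. RELB was called at the members in 1 condition, 6 h of TWEAK, with 1 region each in the windows of PLAU, PLAUR and SERPINE2. With vehicle, with TNFα at either time and with TWEAK at 30 min, RELB had 0 regions there. A site that a list does not hold was not called, which is not the same as unbound, since values under the calling threshold were not analysed here.

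These counts can be read beside all protein-coding genes with windows built in the same way. A RELA region was present at 5.05% of all genes with vehicle, at 48.1% and 26.8% with TNFα for 30 min and 6 h, and at 7.58% and 5.11% with TWEAK for those times. For RELB, the share of all genes was 3.06% with vehicle, 1.58% and 3.87% at 30 min and 6 h of TNFα, and 1.39% and 13.6% at 30 min and 6 h of TWEAK. The 5 of 5 members with RELA thus stand beside a high background at 30 min of TNFα and a lower one at 6 h, and the 3 of 5 with RELB at 6 h of TWEAK beside the lowest of these. Per Mb of window, the members held 21.1 RELA regions at 30 min of TNFα against 5.13 over all genes, and 4.53 RELB regions at 6 h of TWEAK against 0.971. Beside the median window of 127 kb, length did not set the members apart in 1 direction. The windows of PLAU (108 kb) and PLAUR (124 kb) were shorter than it, and those of PLAT (133 kb), SERPINB2 (132 kb) and SERPINE2 (164 kb) were longer. The densities over all genes were taken over summed window length, so they reflect the mean window and not this median. FOSL1 and vehicle H3K27ac were present in all 5 windows, as they were at 90.6% and 91.5% of all genes, so their presence alone says little about the members. Their density was also above that of all genes. FOSL1 had 52.9 regions per Mb of member window against 28.5, and vehicle H3K27ac had 64.9 against 32.2.

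**Figure D1:**
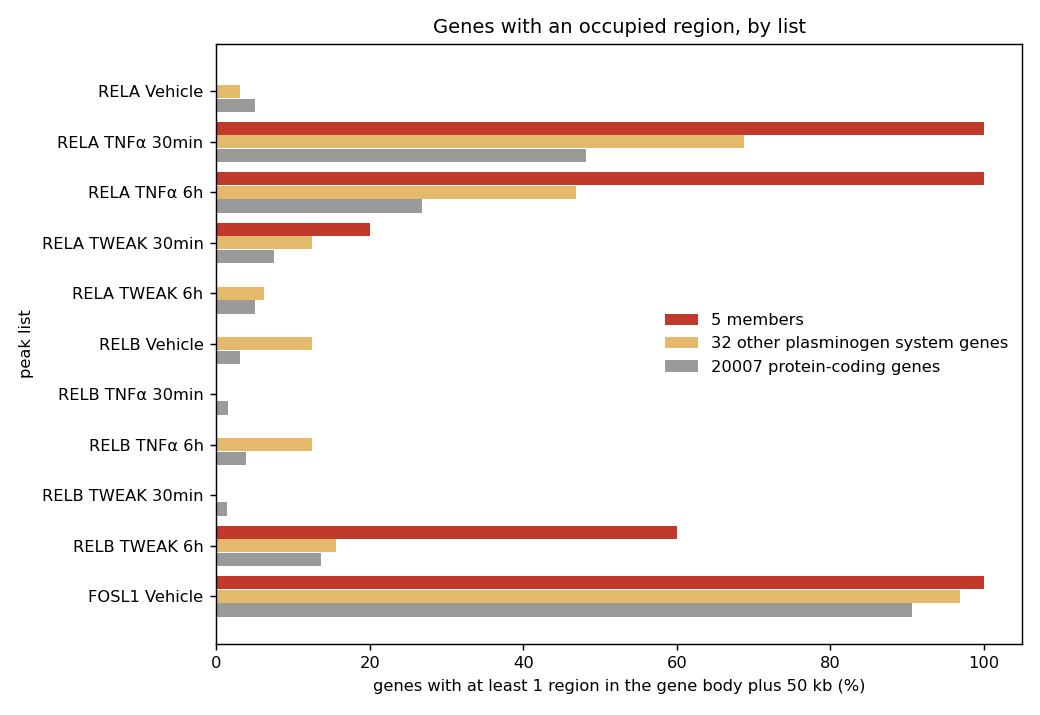
Percent of genes with at least 1 peak in the gene body plus 50 kb (x axis) for each RELA, RELB and FOSL1 list (y axis), for the 5 members (red), 32 other plasminogen system genes (yellow) and 20007 protein-coding genes (grey). The red bars reach 100% for RELA at both TNFα times and for FOSL1, 60% (3 of 5) for RELB at 6 h of TWEAK and 20% (1 of 5) for RELA at 30 min of TWEAK, and are at 0 elsewhere.

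PLAU (ENSG00000122861, chr10:73909177-73917496, plus strand) had 5 RELA regions at 30 min of TNFα, and 99.1% of all genes had as many or fewer. The strongest lay 1.88 kb upstream of the canonical start site, at chr10:73909079-73909439, where the annotated gene body begins. Its fold enrichment, the ratio of ChIP reads over input that the authors deposited for each peak, was 15.2 at 30 min of TNFα, rank 452 of 11266 regions by that value, and 10.7 at 6 h, rank 770 of 7294. It was called in neither TWEAK list for RELA nor in any RELB list. The κB match printed for this site lay 9 bp from the RELA summit and the AP-1 match 10 bp from it, and the FOSL1 summit (fold enrichment 4.9) was 9 bp away. Both matches and both summits thus lay close together.

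A second strong PLAU site lay 22 kb upstream, at chr10:73888874-73889328, between PLAU and CAMK2G, a calmodulin-dependent kinase gene whose start was nearer (14.6 kb). RELA reached 11.6 there at 30 min of TNFα and 6.69 at 6 h, and RELB reached 6.91 at 6 h of TWEAK. The κB match of the printed sequence lay 38 bp from the RELA summit, and the FOSL1 summit (5.41) was 6 bp from it. Of the 5 PLAU sites, this was the only one called for RELB, although the site at 1.88 kb had the higher RELA value at both TNFα times.

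The other 3 PLAU sites were weaker for RELA and stronger for FOSL1. At 21.4 kb downstream RELA was 6.4 at 30 min and 6.06 at 6 h, and FOSL1 was 15.8, the highest FOSL1 value in the PLAU window. At 23.2 kb upstream RELA was 3.63 and FOSL1 9.53. At 55.2 kb downstream, 31.8 kb from the start of VCL (vinculin, a focal adhesion protein), RELA was 4.84 and FOSL1 9.41. The last pair was called for RELA at 30 min of TNFα alone. FOSL1 overlapped all 5 PLAU sites, and PLAU held 10 of the 35 FOSL1 regions of the 5 windows.

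PLAT (ENSG00000104368, chr8:42174718-42207709, minus strand) had no RELA or RELB region in its gene body or near its promoter. Its 2 RELA sites lay in the flanks, and in neither case was PLAT the gene with the nearest start. At 67.6 kb downstream, 13.1 kb from the start of AP3M2 (an adaptor complex subunit), RELA was 10.7 at 30 min of TNFα and 7.23 at 6 h, and the same span around the summit held 1 κB match. At 45.3 kb upstream, RELA was 5.35 at 30 min and was not called at 6 h. That site was nearest to IKBKB, which encodes the IKKβ kinase of canonical NF-κB signaling, at 18.5 kb. FOSL1 overlapped neither site, while the highest FOSL1 value of the PLAT window, 12.6, stood 2.4 kb upstream of the PLAT start, where no RELA or RELB list held a region.

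PLAUR (ENSG00000011422, chr19:43646095-43670547, minus strand) carried the strongest RELA site of the 5 genes and the one called under most treatments. The site lay 5.5 kb upstream of the start, at chr19:43675473-43675813, in intergenic sequence. RELA fold enrichment was 22.7 at 30 min of TNFα, rank 38 of 11266, and 14.0 at 6 h. TWEAK gave 13.0 at 30 min, rank 145 of 2791. RELB was 8.17 at 6 h of TWEAK, rank 983 of 4052. RELA with vehicle, RELA at 6 h of TWEAK and the other 4 RELB lists did not hold it. The printed sequence has 2 overlapping κB matches, 9 and 10 bp from the summit, and the FOSL1 summit (11.6) was 80 bp away. Over all genes, 99.8% had a lower best RELA value at 30 min of TNFα than PLAUR, and 99.2% had a lower one at 30 min of TWEAK.

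The other PLAUR site, in intron 1 at 1.49 kb downstream of the start, was called for RELA at 30 min of TNFα alone (3.82, rank 10659 of 11266) and had neither a κB nor an AP-1 match. Around the PLAUR promoter FOSL1 had 3 regions, 0.188 kb upstream and 0.28 and 1.13 kb downstream of the start, with fold enrichments of 4.5, 3.59 and 3.52, and none of them overlapped a RELA or RELB region. Repetitive sequence bears on both PLAUR sites. The 1000 bp around a summit were compared with themselves shifted by 1 to 400 bases, and a share of equal bases of at least 0.4 was taken as a tandem repeat. The upstream site had 0.479 (at a shift of 2 bases) and the intron 1 site 0.422 (at 63 bases), whereas the other 13 sites were under 0.4. Of the 2958 such regions in the RELA list at 30 min of TNFα, 61.2% were also called with vehicle, and neither PLAUR site was. Without regions of that kind, PLAUR had no RELA or RELB site, and with a limit of 0.5, chosen after the values were seen, it had both.

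SERPINB2 (ENSG00000197632, chr18:63871692-63903888, plus strand) had the lowest best RELA value of the 5 members. Its strongest site lay 22.4 kb downstream of the canonical start, at chr18:63909949-63910174, in intron 1 of SERPINB10, a neighboring gene of the same serpin clade, 2.1 kb from that gene's start. RELA was 6.93 there at 30 min of TNFα and 5.03 at 6 h. The printed sequence has 2 overlapping κB matches, 12 and 13 bp from the summit. Neither FOSL1 nor H3K27ac of any condition was called at this site, which was the only one of the 15 with no H3K27ac list.

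Upstream of SERPINB2, 2 sites stood 4.94 and 5.5 kb from the canonical start, within the annotated gene body of a longer transcript. The site at 4.94 kb was called at 30 min of TNFα (5.0) and not at 6 h, and the site at 5.5 kb was called at 6 h (5.03) and not at 30 min. At the former, the FOSL1 summit (9.2) was 15 bp from the RELA summit, and the AP-1 match TGACTCA printed for it lay 4 bp from that summit. The site at 5.5 kb had no FOSL1 region and neither motif. No RELB list, and no RELA list with TWEAK, held a region in the SERPINB2 window.

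SERPINE2 (ENSG00000135919, chr2:223975045-224039318, minus strand) had 3 sites with 3 different patterns. At 47.4 kb upstream, RELA was 10.5 at 30 min of TNFα and 8.09 at 6 h, and FOSL1 was 17.6, the highest FOSL1 value at any of the 15 sites, with its summit 89 bp away. The printed window held no κB and no AP-1 match around the RELA summit. At the promoter, at chr2:224039470-224039660, RELA was 4.2 at 30 min of TNFα and RELB was 5.97 at 6 h of TWEAK, with summits at −277 and −319 bp from the start. This was the only 1 of the 3 sites shared with RELB at which the RELB value was the higher, by a ratio of 1.42, and the only RELA or RELB site within 1 kb of a member start. The ratio of RELB at 6 h of TWEAK to RELA at 30 min of TNFα was 0.36 at PLAUR and 0.596 at PLAU, beside a median of 0.802 over the 1307 regions in both lists outside tandem repeats. These are values of different antibodies in separately called lists, and their ratio is a description.

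The last SERPINE2 site, 93.9 kb downstream, was 70 bp from the start of WDFY1, a gene of endosomal signaling. RELA was 5.0 there at 30 min of TNFα, and no other RELA or RELB list held it. Across the 5 members, 8 sites had the start of their member as the nearest protein-coding start and 7 did not. PLAU, PLAUR, SERPINB2 and SERPINE2 each kept at least 1 site by that criterion, and PLAT kept none. When regions were assigned in that way, the RELA count at 30 min of TNFα was 7.

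**Figure D2:**
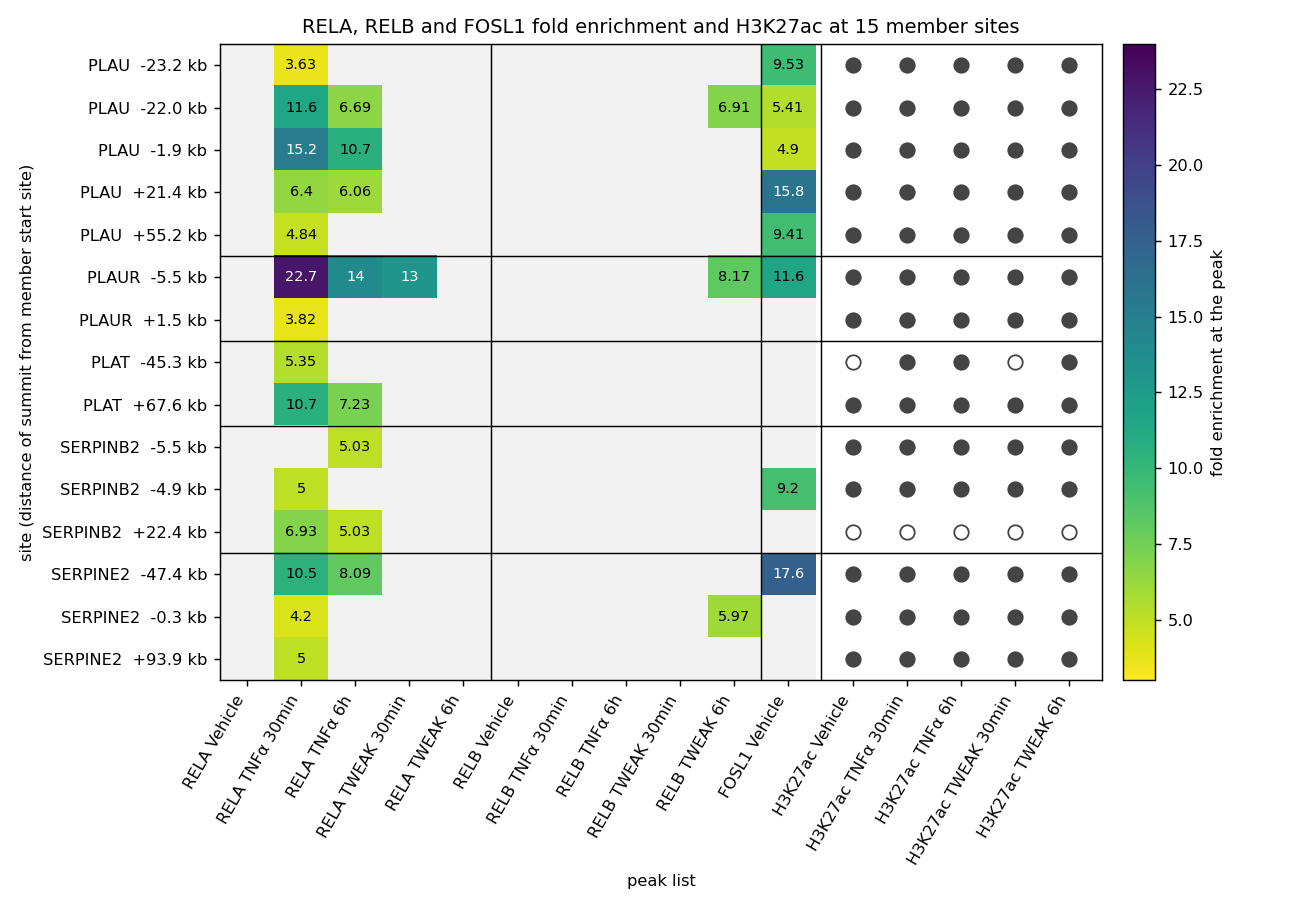
The 15 sites (rows, named by gene and distance of the strongest summit from the canonical start) against the RELA, RELB and FOSL1 lists (colored cells, fold enrichment written in each, light grey where not called) and the 5 H3K27ac lists (filled circles, peak within 500 bp of the summit, open circles, none). Color is confined to RELA with TNFα, the PLAUR site for RELA at 30 min of TWEAK, 3 sites for RELB at 6 h of TWEAK, and FOSL1.

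Of the 14 sites called for RELA at 30 min of TNFα, 7 were also called at 6 h, 50.0% (exact 95% interval 23 to 77, which covers counting error only), beside 45.2% of the 11266 regions of the list and 35.3% of its 8308 regions outside tandem repeats. The 7 shared sites had fold enrichments from 6.4 to 22.7 at 30 min, and the 7 others from 3.63 to 5.35, so that the value at 30 min separated them without overlap. Medians were 10.7 and 4.84. In the whole list outside tandem repeats the medians were 9.37 for regions also called at 6 h and 5.5 for the rest.

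At all 7 shared sites the deposited value was lower at 6 h than at 30 min. The ratio ran from 0.577 at PLAU 22 kb upstream to 0.948 at PLAU 21.4 kb downstream, and the median over the 2932 regions in both lists outside tandem repeats was 0.792. The site 21.4 kb downstream of PLAU was the only 1 of the 7 above that median, and the other 6 lay below it, with 0.617 at PLAUR, 0.678 at PLAT, 0.705 at PLAU 1.88 kb upstream, 0.726 at SERPINB2 and 0.768 at SERPINE2. A κB match was found at 5 of the 7 shared sites and at 0 of the 8 sites called at only 1 TNFα time. In the whole list outside tandem repeats it was found in 61.7% of the regions also called at 6 h and in 36.8% of the others.

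**Figure D3:**
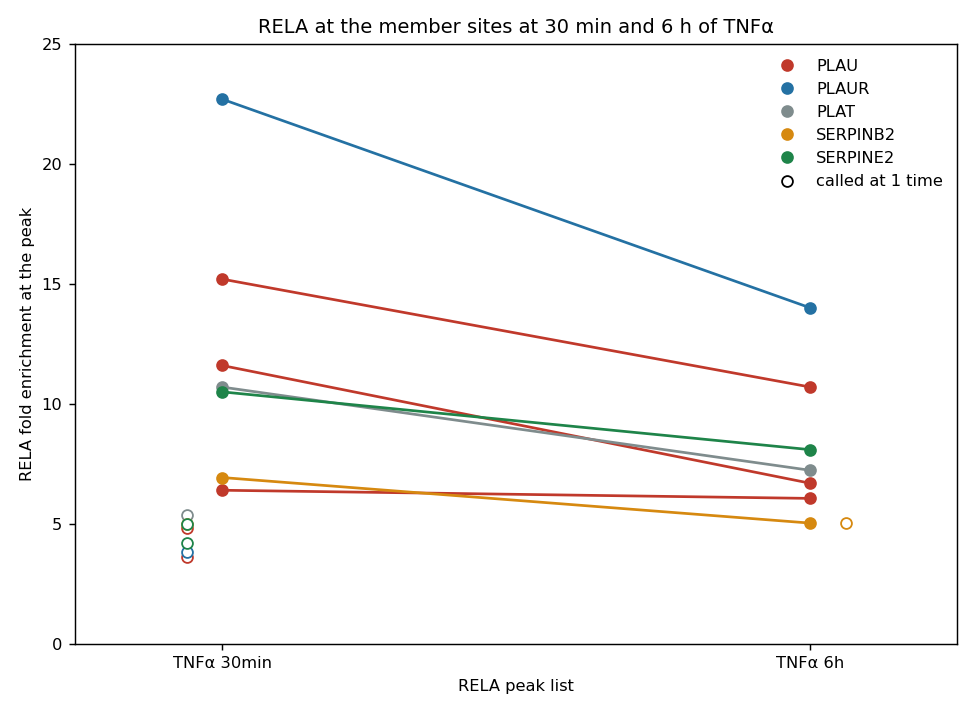
RELA fold enrichment (y axis) of the member sites at 30 min and 6 h of TNFα (x axis), colored by gene, with lines joining the 7 sites called at both times and open circles, set beside the axis position, for the 8 sites called at only 1 of these times. Each of the 7 lines slopes down, and the open circles at 30 min lie at or below 5.35.

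Over the 14 member regions of the RELA list at 30 min of TNFα, a κB match was present in 35.7%, beside 34.5% of all regions of the list and 45.6% of those outside tandem repeats. The AP-1 consensus was present in 28.6% (4 of 14, exact 95% interval 8.39 to 58.1), beside 8.41% of all regions and 11.1% of those outside tandem repeats. The TEAD consensus GGAATG was found at 1 site, the one 45.3 kb upstream of PLAT, beside 10.1% of the list and 8.79% outside tandem repeats. All 4 sites with an AP-1 match, 3 at PLAU and 1 at SERPINB2, overlapped FOSL1. The other 4 FOSL1 sites, PLAU 22 kb upstream and 55.2 kb downstream, PLAUR 5.5 kb upstream and SERPINE2 47.4 kb upstream, had no such match within 50 bases of the RELA summit. A match is a description of letters and not a site that was shown to bind.

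FOSL1 overlapped 8 of the 14 regions (57.1%, exact 95% interval 28.9 to 82.3), beside 58.0% of the whole list and 48.8% of its regions outside tandem repeats. Over the 15 sites the genes differed among themselves, with FOSL1 at 5 of 5 PLAU sites, 1 of 2 PLAUR sites, 0 of 2 PLAT sites, 1 of 3 SERPINB2 sites and 1 of 3 SERPINE2 sites. Where both were called, the RELA and FOSL1 summits were 6 to 89 bp apart (median 38.0), beside a median of 65.0 bp over the 4058 such regions of the list outside tandem repeats. Of the 35 FOSL1 regions in the 5 windows, 8 overlapped a RELA or RELB site (22.9%, beside 14.9% of all 58864 FOSL1 regions) and 27 did not. Median FOSL1 fold enrichment was 9.47 at the former and 5.36 at the latter, beside 5.03 and 4.98 over all FOSL1 regions on and off a RELA or RELB region. Vehicle H3K27ac was present at 8 of those 8 and at 21 of those 27 in the member windows, beside 67.2% and 67.4% over all FOSL1 regions. The values over all FOSL1 regions were not filtered for tandem repeats. Such repeats held from 26.3% (RELA at 30 min of TNFα) to 94.7% (RELB at 30 min of either ligand) of the regions in the RELA and RELB lists.

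H3K27ac was present in vehicle cells, within 500 bp of the summit, at 13 of the 15 sites, and these 13 had it in all 5 conditions. Over the 14 RELA regions the share was 85.7% (exact 95% interval 57.2 to 98.2), beside 60.1% of the whole list and 63.2% outside tandem repeats. When the vehicle peak had to overlap the region, the share was 64.3% (9 of 14), and the list share was not computed in that way. By the 500 bp distance, the PLAT site 45.3 kb upstream was the only one where the call differed between conditions. H3K27ac was not called there with vehicle or at 30 min of TWEAK. It was called with TNFα at both times (3.2 and 3.22) and with TWEAK at 6 h (2.86), but the peak overlapped the region at 30 min of TNFα alone. By overlap, the call also differed at SERPINE2 93.9 kb downstream (6 h of TNFα alone) and at PLAU 1.88 kb upstream (30 min of TWEAK alone). At the PLAT site 45.3 kb upstream, RELA was called at 30 min of TNFα and in no other RELA or RELB list, and IKBKB had the nearest start. Relative to vehicle, the member RELA regions gained 1 call and lost 0 at 30 min of TNFα, while 13.1% of all RELA regions gained one and 2.03% lost one.

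At the strongest PLAU site, 1.88 kb upstream, H3K27ac flanked the RELA region in all 5 conditions, with the stronger flanking peak at a fold enrichment of 1.7 to 2.34, and overlapped it at 30 min of TWEAK alone. At the PLAUR site 5.5 kb upstream it overlapped the region in all 5 conditions, with values of 3.2 to 3.64. The member start sites of PLAU, PLAUR, PLAT and SERPINE2 had an H3K27ac peak within 500 bp in every condition, the best of them with values of 1.68 to 1.96 at PLAU, 3.14 to 3.45 at PLAUR, 2.19 to 2.78 at PLAT and 3.26 to 3.83 at SERPINE2. At the canonical SERPINB2 start no condition had one. The nearest peak there was 1170 bp away with vehicle, 1204 and 1018 bp at 30 min and 6 h of TNFα, 502 bp at 30 min of TWEAK and 4208 bp at 6 h of TWEAK.

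H3K27ac peaks covered 46.6 kb of the 5 windows with vehicle, 44.6 kb and 48.5 kb at 30 min and 6 h of TNFα, and 44.9 kb and 39.7 kb at 30 min and 6 h of TWEAK. As ratios to vehicle these were 0.957, 1.04, 0.963 and 0.85, while those of the whole lists were 0.813, 1.0, 0.845 and 0.837. The covered length in the windows at 30 min of either ligand was thus closer to vehicle than that of the lists. The PLAU window was the most acetylated, with 13.6 to 16.1% of its length covered, and the SERPINB2 window the least, with 2.51 to 3.81%.

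Among 32 other genes of plasminogen activation, its receptors, inhibitors and activating proteases, 22 (68.8%) had a RELA region at 30 min of TNFα and 15 (46.9%) at 6 h, beside 48.1% and 26.8% of all genes. RELB at 6 h of TWEAK was called at 5 of them (15.6%), beside 13.6% of all genes, namely ITGAV, EGFR, ANXA2, ITGA3 and MMP3. With vehicle, RELB was called at 4 of the 32 (12.5%, beside 3.06% of all genes), among them ITGAV, EGFR and ANXA2, so that ITGA3 and MMP3 were the 2 genes with RELB at 6 h of TWEAK and none with vehicle. The highest RELA values at 30 min of TNFα were 23 at ITGAV, the αv subunit of the vitronectin receptor that pairs with uPAR, 16.6 at the serpin SERPINB8, 14.3 at EGFR, 13.2 at HPN, a membrane serine protease, and 11.8 at LRP1, the endocytic receptor that clears complexes of uPA with its inhibitors. PLAUR, at 22.7, was thus close to the highest of this list, and PLAU, at 15.2, lay between SERPINB8 and EGFR. ITGAV was the only one of the 32 with a RELA region in the vehicle list.

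The genes whose pattern was most like each member were sought by the Euclidean distance between best fold enrichments over the 10 RELA and RELB lists, with 0 where no region was called. For PLAU they were KDM2B, SLMAP and SSR1, at distances of 1.0 to 1.17. For PLAUR they were GRK4, NOP14 and TMC1, at the larger distances of 3.98 to 4.72, of which GRK4 and NOP14 had the same values. KCMF1, TMSB10 and TRABD2A (0.0796 each) were nearest to PLAT, COPB1, ENSG00000256206 and LARP6 (0.0132 to 0.0848) to SERPINB2, and DNM1, TINAGL1 and ENO4 (0.428 to 0.602) to SERPINE2. The genes nearest to PLAT all had the same values as each other, and so did COPB1 and ENSG00000256206. The same set of lists with and without a call as PLAUR was found at 256 other genes, or 1.28% of all, as PLAU at 953 and as PLAT at 2221, so that the PLAUR pattern was shared by the fewest.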

How the data were processed

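Per the labels and the study's methods, the authors mapped ChIP-seq reads to hg38 with Bowtie2 2.5.0 and called peaks with MACS2 (version not given in the sources used here) against input, narrow for RELA, RELB and FOSL1 and broad for H3K27ac; SAMtools 1.18 and deepTools 3.3.2 are also named in the submitters' processing notes. The deposited lists give a fold enrichment ratio over input, a −log10 q and, in the 11 narrow lists, a summit offset. The deposited score and −log10 p (32 columns) were not used. Read depth per sample is unknown, so no interval on a fold enrichment can be given, and different antibodies were used.

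Chromosomes 1 to 22, X and Y alone were used (2414 to 11266 regions in the RELA and RELB lists, 58864 for FOSL1, 53895 to 61194 for H3K27ac). All 314 sequence names of the lists were found in the reference. Overlaps needed 1 bp. Start sites were those of the canonical transcripts of GENCODE 44. Scripts used Python 3.11.15, numpy 2.4.6, pandas 2.3.3, scipy 1.17.1 and pysam 0.24.0 and were tested on simulated data. Shares carry exact (Clopper-Pearson) 95% intervals, which cover counting error over regions only. No paired analysis and no test between conditions was possible.

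Named were all 5 members, neighboring genes that hold a site or have the nearest start, the 3 genes with the most similar pattern, the 5 other plasminogen system genes with the highest RELA value at 30 min of TNFα, the 5 with RELB at 6 h of TWEAK and the 1 with vehicle RELA. The last 2 sets, the sequences other than that of each member's strongest site, and the comparisons of κB matches between times were chosen after their values were seen. Members and lists were chosen with earlier results of these data known.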

Additional observations from a re-analysis of the deposited data

How the results depend on the processing

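No paired analysis was possible because each list merges the replicates of its condition, and for the same reason no replicate could be left out. Of 90 alternatives over 11 results, 72 stayed within 1.5 times the count or within the interval of the share, 18 moved further and 0 reversed. Only the H3K27ac differences could reverse, since counts and shares have no sign. A count of 0, as for RELA with vehicle, could not move under a stricter choice. The intervals of the shares are wide, so staying within them says little. With 10 kb in place of 50 kb, RELA had 6 regions at 30 min of TNFα and 4 at 6 h. The gain minus loss of H3K27ac was then 0 for 30 min of TNFα and 0 for 6 h of TWEAK. With 100 kb the former was 2. With the nearest start as the criterion, RELA had 7 and 5 regions, the share with vehicle H3K27ac was 100%, and both H3K27ac differences were 0. Among the 2000 strongest regions of each list, RELA had 4 and 2 regions, RELB at 6 h of TWEAK had 1, and 3 members kept a RELA region at 30 min. The FOSL1 overlap was then 0.0% of 4 regions, but the FOSL1 list was itself cut to 2000 of its 58864 regions. In the uncut FOSL1 list, the strongest RELA sites of PLAUR and PLAU did overlap FOSL1 (11.6 and 4.9). Outside tandem repeats, RELA at 30 min of TWEAK had 0 regions. The H3K27ac difference at 6 h of TWEAK was 0 when H3K27ac had to overlap the site and 0 at q of at most 0.001. The window, nearest start, list length and repeat choices change by construction which regions are counted, and the cause of the other moves was not tested. Without read depth, sites under the calling threshold cannot be told from unbound ones.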
